A study of Homo sapiens with 4 samples.

Results

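Nuclear receptors are transcription factors that bind DNA through zinc fingers and, for many members, are switched by a steroid or another small lipid. The 9 receptor genes described here are the oestrogen receptors ESR1 and ESR2, the progesterone receptor PGR, the glucocorticoid receptor NR3C1, the oestrogen-related receptors ESRRA and ESRRG, the orphan receptors NR2F1 and NR2F2, and NR0B1, an atypical member that lacks the DNA-binding domain. They were measured by 15 probes among the 41000 probes of the array, and a probe was taken as theirs when the RefSeq accession printed for it belonged to one of the 9 genes. All probes of a gene were kept apart, because the probes of ESRRG did not read alike. The genes were selected on their knockdown-over-control ratios, which were already known, so these ratios are given as a description and carry no test.

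The cells were A2780s, a human ovarian adenocarcinoma cell line. The clones named sh-G1 and sh-G2 stably carried a GALNT3 shRNA cloned in pSilencer 4.1 puro, a vector with puromycin resistance, and the control (ctrl) was a clone mock-transfected with that vector. Every clone, ctrl included, came through 2 weeks of selection in 5 μg/mL puromycin. GALNT3 encodes an enzyme that starts mucin-type O-glycosylation. Total RNA of each knockdown clone was hybridised against ctrl RNA on 2 arrays of 2 colours, with the knockdown RNA in Cy5 on replicate 1 and in Cy3 on replicate 2. The 4 arrays lay on 1 slide. According to the methods of the study, both knockdown clones carried the same shRNA sequence, so each group is 1 clone and its arrays repeat the hybridisation, not the cells. A clone effect, an effect of the shRNA sequence on other transcripts and an effect of GALNT3 loss cannot be told apart in these data.

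The arrays were close in background but not in the brightness of the dyes. Each held 43376 spots that were not controls, of which 145 to 215 were marked as outliers and 0 were saturated. The median Cy3 signal was 451.5 to 802.5 and the median Cy5 signal 463.25 to 558, over a background of 38 to 41 scanner units. In the knockdown channel, 88.1% of spots were well above background on sh-G2 replicate 2 and 95.4% to 97.0% on the other arrays. In the ctrl channel the share was 95.9% to 97.6%. The targeted gene did not mark the knockdown clones on these arrays. The GALNT3 probe A_24_P114249 gave log2 ratios of −0.09 and 0.08 in sh-G1 and of 0.12 and −0.14 in sh-G2, with a mean of −0.01 (limma, Benjamini-Hochberg adjusted p = 0.963). On 2 of 4 arrays its knockdown reading was marked as well above background. The part of the transcript that this probe reads was not analysed here. The study itself reported significantly lower GALNT3 expression in sh-G1 and sh-G2 than in ctrl. It had chosen these clones on their GALNT3 mRNA and protein, using Western blots and RT-PCR, which were not analysed here. In what follows, a knockdown clone is therefore a clone labelled as such.

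Receptors of the steroid hormone branch wait for their ligand in complexes with chaperones and then bind inverted repeats of a short DNA motif, whereas the orphan receptors have no settled physiological ligand and often act on basal transcription. The oestrogen-related receptors are best known for driving genes of mitochondrial energy production. NR0B1, known as DAX1, represses other nuclear receptors and takes part in adrenal and gonadal development. NR2F1 and NR2F2, known as COUP-TF1 and COUP-TF2, bind direct repeats of the core motif AGGTCA and control development, and NR2F2 is well known in the stroma of steroid-responsive organs and in veins. The oestrogen, progesterone and glucocorticoid receptors are the members most often examined in ovarian carcinoma.

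Promoter windows of the 3 genes among these 9 with the largest ratios are shown, from 250 bases before to 50 bases after the annotated start, as RefSeq gives them on GRCh38.p14. Of 35116 windows in that table, 35 belonged to the 9 genes, namely 8 of ESRRG, 7 of NR3C1, 6 of ESR1, 5 of ESR2, 3 of PGR, 2 each of NR2F1 and NR2F2, and 1 each of NR0B1 and ESRRA. Capitals mark AGGTCA (the core motif of many nuclear receptors), GGGCGG (the GC box) and TATAAA (the TATA box), searched on both strands. The sequences run 5′ to 3′ on the strand of the gene. The NR0B1 window lies at chrX:30309341-30309640 on the minus strand, the ESRRG windows at chr1:217076943-217077242 and chr1:217078238-217078537 on the minus strand, and the NR2F2 window at chr15:96333515-96333814 on the plus strand.
NR0B1: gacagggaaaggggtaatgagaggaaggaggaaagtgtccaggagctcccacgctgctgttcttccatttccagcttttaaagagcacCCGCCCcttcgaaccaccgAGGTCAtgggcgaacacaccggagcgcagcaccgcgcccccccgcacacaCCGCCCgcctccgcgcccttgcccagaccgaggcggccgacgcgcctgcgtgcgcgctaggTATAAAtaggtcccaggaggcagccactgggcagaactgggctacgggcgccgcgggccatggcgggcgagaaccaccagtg
ESRRG first window: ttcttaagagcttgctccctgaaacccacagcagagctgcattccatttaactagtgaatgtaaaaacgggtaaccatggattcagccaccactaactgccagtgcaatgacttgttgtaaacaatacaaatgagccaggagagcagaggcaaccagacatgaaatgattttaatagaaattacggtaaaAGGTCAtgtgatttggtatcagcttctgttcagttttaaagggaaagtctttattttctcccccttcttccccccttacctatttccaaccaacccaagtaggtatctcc
ESRRG second window: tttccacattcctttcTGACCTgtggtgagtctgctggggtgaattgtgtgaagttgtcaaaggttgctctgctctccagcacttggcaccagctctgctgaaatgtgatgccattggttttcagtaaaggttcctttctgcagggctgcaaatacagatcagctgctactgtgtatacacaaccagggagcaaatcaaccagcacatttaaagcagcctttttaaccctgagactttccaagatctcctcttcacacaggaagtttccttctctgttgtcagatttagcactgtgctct
NR2F2: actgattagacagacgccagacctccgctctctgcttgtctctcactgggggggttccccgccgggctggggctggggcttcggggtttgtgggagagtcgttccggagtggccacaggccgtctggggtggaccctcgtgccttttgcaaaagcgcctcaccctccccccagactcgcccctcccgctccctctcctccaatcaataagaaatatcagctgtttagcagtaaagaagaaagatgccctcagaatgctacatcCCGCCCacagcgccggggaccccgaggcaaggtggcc

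Of the 35 windows, that of NR0B1 alone held all 3 of these motifs. Its AGGTCA began 143 bases before the start, its GGGCGG motifs 162 and 93 bases before, and its TATAAA 32 bases before. The ESRRG windows shown are the 2 of its 8 that held AGGTCA, and the NR2F2 window is the 1 of its 2 that held any of the 3 motifs. In ESRRG, AGGTCA began 60 bases before the start in the first window and 234 bases before in the second. The NR2F2 window had no AGGTCA, and its GGGCGG began 13 bases after the start. AGGTCA was found in 6 of the 35 windows (17.1%), against 13.8% of all windows, and GGGCGG in 16 (45.7%), against 45.0%. TATAAA was found in 3 (8.57%), against 11.5% of all windows. These are counts of windows and not of sites. Windows of a gene can overlap, and 2 of the ESR2 windows held the same AGGTCA. Longer forms were rare everywhere. TCAAGGTCA, which contains AGGTCA, was in 0.353% of all windows, and the full oestrogen response element, an inverted repeat, in 0.057%, and 0 of the 35 windows held either. A match is only a match of letters, since no binding was measured here.

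Values are given below as log2 ratios of the knockdown clone over ctrl, turned for the dye, and a probe was kept when the scanner software marked either channel as well above background on each array. Of the 13 probes of the receptor genes that were kept, 3 probes of 2 genes were lower by at least 1.5-fold on all 4 arrays, and 1 probe of 1 gene was at least 1.5-fold higher on all 4. Over all 39151 probes kept, 0.920% were that much lower and 0.230% that much higher. These counts follow from how the genes were chosen and are given as a description. NR0B1 and NR2F2 were lower, ESRRG was higher by 1 of its probes, and 6 genes had no such probe. The mean log2 ratio lay within 0.1 of 0 for 7 of the 13 probes, and the median of the 13 was −0.0038, against −0.0037 over all probes kept. On bulk RNA, fewer expressing cells and less RNA per cell cannot be told apart.

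**Figure D1:**
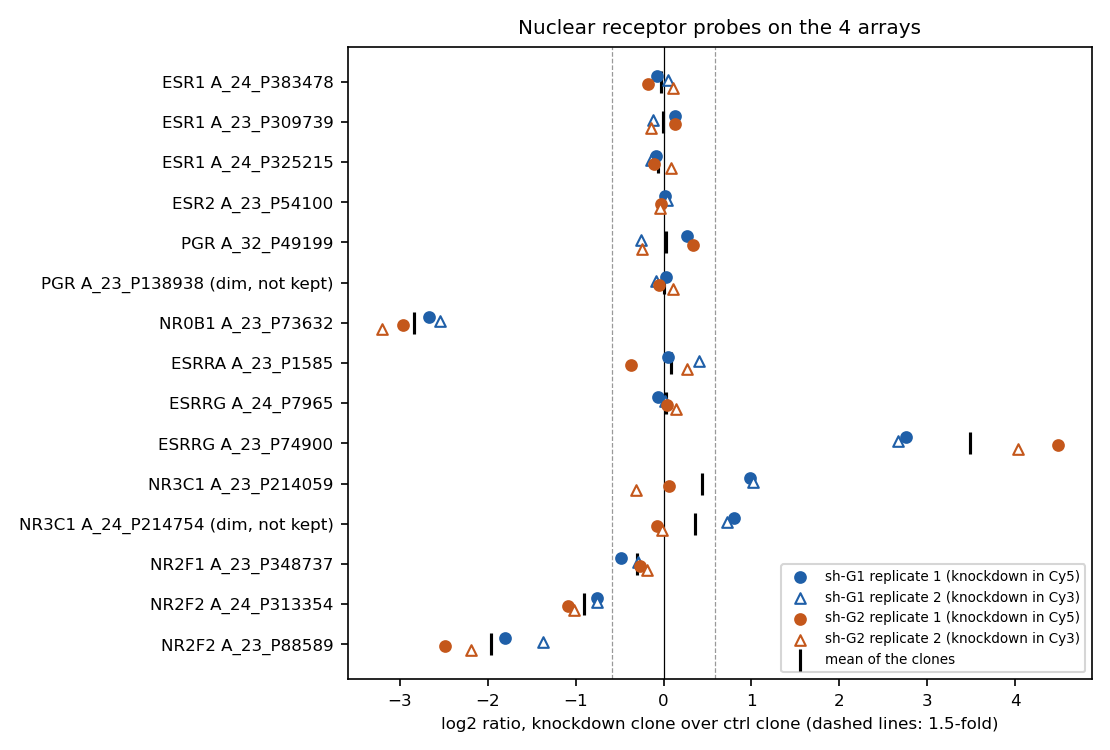
Log2 ratio of the knockdown clone over ctrl (horizontal axis) for the 15 probes of the 9 receptor genes, with 1 symbol per array, a black bar at the mean of the clones and dashed lines at 1.5-fold. NR0B1 and both NR2F2 probes lay below the lower line on all 4 arrays, 1 ESRRG probe lay above the upper line at 2.67 to 4.49, and the NR3C1 symbols of sh-G1 stood apart from those of sh-G2.

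ESRRG, an orphan receptor of the oestrogen-related group that binds DNA without a known natural hormone, displayed the highest ratio of the 9 genes, and it did so by 1 of its probes. Probe A_23_P74900 gave log2 ratios of 2.76 and 2.67 in sh-G1 and of 4.49 and 4.03 in sh-G2. Its mean of 3.49 ± 0.77 (SE, n = 2 clones) was an 11.2-fold higher signal, 6.57-fold in sh-G1 and 19.1-fold in sh-G2, and was the 3rd highest of all probes kept. All 4 arrays were high, and the arrays of sh-G2 did not overlap those of sh-G1. In scanner units, the knockdown spots read 628 and 659 in sh-G1 and 2568 and 2333 in sh-G2. The ctrl spots on these arrays read 143, 106.5, 169 and 123. Readings in scanner units, here and below, are intensities before normalisation, so the brightness of each dye is part of them.

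The other ESRRG probe, A_24_P7965, gave log2 ratios of −0.07 and 0.01 in sh-G1 and of 0.04 and 0.14 in sh-G2. Its mean of 0.03 was near 0, and no array of it came near 1.5-fold. Its spots read 365, 403, 382 and 551 in the knockdown channel and 633, 444, 571 and 463 in the ctrl channel, above background on every array. The probes were annotated to the same RefSeq transcript, so the annotation does not tell which transcripts of ESRRG each one reads. The study itself reported higher ESRRG by quantitative PCR in the knockdown cells than in control cells, which was not analysed here. The size of the ESRRG ratio depended on how the ratio was made. It was 3.58 with no background correction, 4.11 with the correction but without its offset of 50, 4.28 by the log ratio of the scanner software and 4.50 by the deposited value table, which lacks sh-G1 replicate 2.

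ESRRA, the relative of ESRRG that drives mitochondrial genes in most tissues, was read by 1 probe, A_23_P1585. Its log2 ratios were 0.05 and 0.41 in sh-G1 and −0.37 and 0.26 in sh-G2, with a mean of 0.09 ± 0.14 (SE, n = 2 clones). The signs of its arrays were mixed and the clones overlapped.

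NR0B1, the repressor of steroidogenic transcription, was the lowest of the 9 genes. Its only probe, A_23_P73632, gave log2 ratios of −2.67 and −2.54 in sh-G1 and of −2.96 and −3.21 in sh-G2. Its mean of −2.85 ± 0.24 (SE, n = 2 clones) was a 7.19-fold lower signal, 6.09-fold lower in sh-G1 and 8.48-fold lower in sh-G2, and the 24th lowest of all probes kept. The ctrl spots read 1513, 907, 1554 and 1124 scanner units, and the knockdown spots only 132, 133.5, 125 and 122. So the knockdown readings were nearly level among the 4 arrays at 122 to 133.5, over a background of 38 to 41, and the software marked them as well above background. The ratio was −2.94 with no background correction, −3.39 without the offset, −3.61 by the log ratio of the software and −3.75 by the value table with its 3 arrays. By quantitative PCR, which was not analysed here, the study reported lower NR0B1 in the knockdown cells.

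NR2F2, the COUP-TF receptor best known from stroma and veins, was lower by both of its probes. Probe A_23_P88589 gave log2 ratios of −1.80 and −1.37 in sh-G1 and of −2.48 and −2.20 in sh-G2, with a mean of −1.96 ± 0.38 (SE, n = 2 clones), a 3.90-fold lower signal. Probe A_24_P313354 gave −0.75 and −0.76 in sh-G1 and −1.09 and −1.02 in sh-G2, with a mean of −0.91 ± 0.15 (SE, n = 2 clones), a 1.88-fold lower signal. The probes shared the direction on every array and the order of the clones, with sh-G2 below sh-G1, yet the size of the decrease differed between them. They ranked 74th and 346th from the lowest of all probes kept.

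The ctrl spots of A_23_P88589 read 4496, 1831.5, 4415 and 2179.5 scanner units, and its knockdown spots 743, 646.5, 496 and 514.5. Those of A_24_P313354 read 3864, 2169, 3585 and 2474 in ctrl and 1318, 1197, 1066 and 1333 in the knockdown clones. For each NR2F2 probe, every ctrl reading was above every knockdown reading.

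NR2F1, the paralog of NR2F2, was read by probe A_23_P348737. Its log2 ratios were −0.48 and −0.29 in sh-G1 and −0.26 and −0.19 in sh-G2, a mean of −0.31 ± 0.08 (SE, n = 2 clones) or a 1.24-fold lower signal. All 4 arrays were below 0, and none reached 1.5-fold. By the value table with its 3 arrays the mean was −0.53. NR2F1 and NR2F2 stood on the same side of 0 with ratios of different size.

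**Figure D2:**
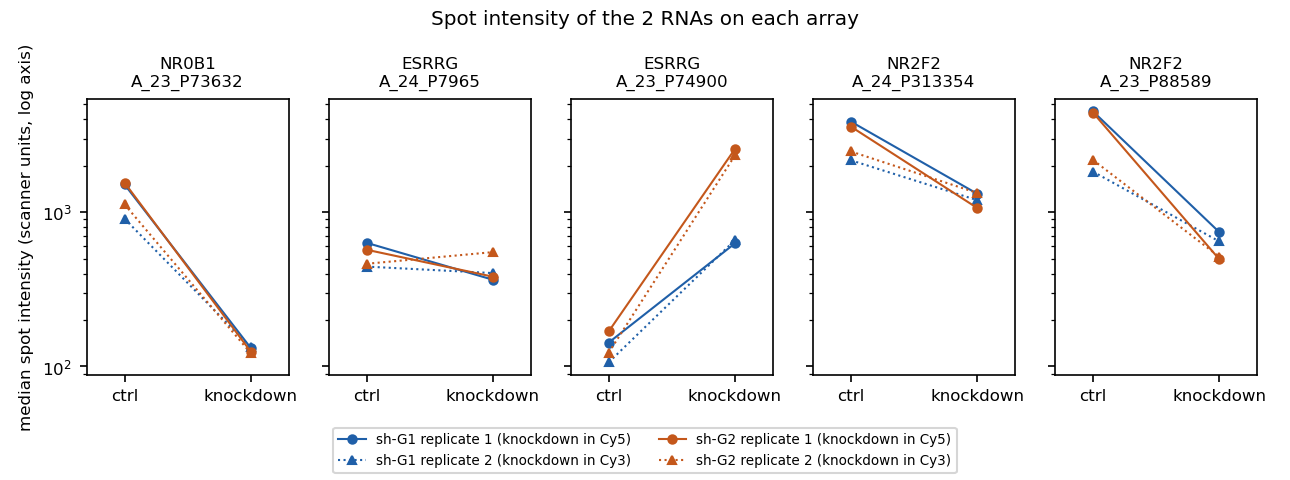
Median spot intensity in scanner units (log axis) of the ctrl RNA and the knockdown RNA on each array, 1 line per array, for NR0B1, both ESRRG probes and both NR2F2 probes. The NR0B1 lines fall from 907 to 1554 down to 122 to 133.5, those of ESRRG A_23_P74900 rise to 628 to 2568, and those of ESRRG A_24_P7965 stay within 365 to 633.

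The glucocorticoid receptor NR3C1, which carries the response to cortisol, differed between the clones. Probe A_23_P214059 was printed on 10 spots per array and gave log2 ratios of 0.98 and 1.01 in sh-G1 and of 0.06 and −0.31 in sh-G2. That was a 2.00-fold higher signal in sh-G1 and a mean of −0.12 on the log2 scale in sh-G2. Single spots of this probe ran from 0.77 to 1.37 and from 0.60 to 1.45 on the sh-G1 arrays, and from −0.22 to 0.35 and from −0.79 to −0.13 on the sh-G2 arrays. No spot of one clone reached those of the other, and the SD over spots was 0.17 to 0.27. Spots of an array share 1 hybridisation and are not replicates of the clone.

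A further NR3C1 probe, A_24_P214754, was too dim to be kept, being well above background in the knockdown channel on the 2 arrays of sh-G1 and on 0 of those of sh-G2. It read 0.80 and 0.72 in sh-G1 and −0.08 and −0.01 in sh-G2, the same order of the clones as the 10-spot probe. In scanner units the 10-spot probe read 310.4 and 327.35 for sh-G1 RNA and 143.05 and 144.6 for sh-G2 RNA, against 165.5 to 252.1 for ctrl RNA. These readings were not normalised for the dye. On sh-G2 replicate 1, 143.05 stood against 198.95 in ctrl, while the normalised log2 ratio was 0.06.

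**Figure D3:**
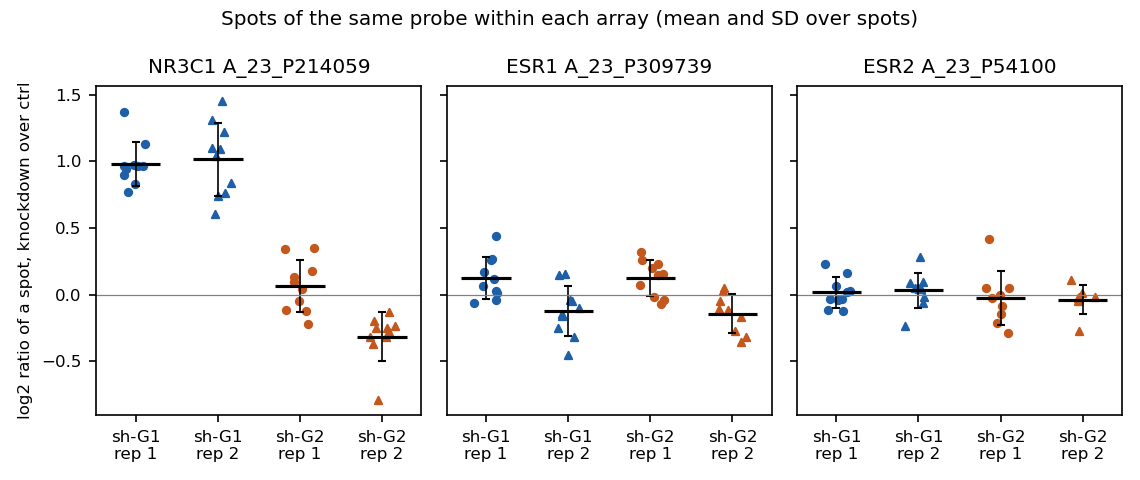
Log2 ratio of the knockdown clone over ctrl (vertical axis) of every single spot of the 3 probes printed on 10 spots per array, by array, with the mean and SD over spots. The NR3C1 spots of sh-G1 lie at 0.60 to 1.45 and those of sh-G2 at −0.79 to 0.35, while the ESR1 and ESR2 spots of all arrays lie around 0.

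ESR1, the oestrogen receptor alpha, was read by 3 probes, and each stayed near 0. The 10-spot probe A_23_P309739 gave log2 ratios of 0.13 and −0.12 in sh-G1 and of 0.13 and −0.14 in sh-G2. Its sign followed the dye and not the clone, and its SD over spots of 0.13 to 0.19 on an array was as large as these ratios. Probe A_24_P383478 gave −0.07, 0.05, −0.18 and 0.11, and probe A_24_P325215 gave −0.08, −0.15, −0.11 and 0.09 on the same arrays in order. Their signs were mixed, and no array of any ESR1 probe came near 1.5-fold.

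ESR2, the oestrogen receptor beta, gave log2 ratios of 0.02 and 0.03 in sh-G1 and of −0.03 and −0.04 in sh-G2 by probe A_23_P54100. It was the flattest of the receptor probes in its range over the arrays, with an SD over its spots of 0.11 to 0.20. Its spots averaged 123 to 163 scanner units in the knockdown channel.

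PGR, the progesterone receptor and a classical oestrogen target, gave log2 ratios of 0.26 and −0.26 in sh-G1 and of 0.34 and −0.25 in sh-G2 by probe A_32_P49199. The ratio was positive with knockdown RNA in Cy5 and negative with it in Cy3 in both clones, and the mean over the dye swaps was 0.02. The other PGR probe, A_23_P138938, was not kept, since its knockdown reading was above background on 1 of 4 arrays and its ctrl reading on 3 of 4. Its ratios were 0.03, −0.08, −0.06 and 0.10.

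The same flag of the software was also set for leukocyte genes in these cultured carcinoma cells. PTPRC, CD3E and CD14 carried it in both channels of all 4 arrays. In the knockdown channel CD3E read 851.5 to 1212 scanner units and CD14 712 to 1074.5. Every knockdown reading of ESR1, ESR2, PGR, NR3C1 and ESRRG A_24_P7965 was below these. A reading above background, for these receptors as for the others, is therefore no sign by itself that the gene was expressed.

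The difference between the knockdown clones was tested in limma over all probes kept. It comes from the same 4 ratios per probe that were known when the genes were chosen. For the receptor probes the test is therefore no independent support, and its counts are given as a description. The fit took the 4 arrays separately, with the clone and the dye as terms. The p-values measure the spread between hybridisations of 1 RNA source per clone. None of the 13 receptor probes passed at an adjusted p of 0.05, and 4 had an unadjusted p below it. Over all probes, 48 of 39151 or 0.123% passed, and 2916 or 7.45% had an unadjusted p below it. ESRRG A_23_P74900 was higher in sh-G2 than in sh-G1 by 1.54 ± 0.12 on the log2 scale (SE; limma, adjusted p = 0.0511). By the log ratio of the software this difference was 1.60 (limma, adjusted p = 0.0290), and without a filter on dim probes it was 1.54 (limma, adjusted p = 0.0461), so it lay on either side of the threshold.

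For NR3C1 A_23_P214059 the difference of sh-G2 minus sh-G1 was −1.12 ± 0.13 (SE; limma, adjusted p = 0.10). NR2F2 differed by −0.75 ± 0.12 in A_23_P88589 (SE; limma, adjusted p = 0.179), and NR0B1 by −0.48 ± 0.12 (SE; limma, adjusted p = 0.411). In each of these 3 probes sh-G2 was below sh-G1 in both dye orientations. The second NR2F2 probe, ESRRA and NR2F1 had adjusted p-values of 0.702, 0.796 and 0.857 by limma.

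The wider receptor family and its partners were examined through 7 lists of 166 genes, of which 158 had a probe that was kept. Each gene was taken by its brightest kept probe, and the calls are those of limma, a linear model with moderated variances, fitted over all probes on the mean of the clones against 0. Some genes stand in more than 1 list. An SE printed with limma is the moderated SE of that fit, whereas an SE printed with n = 2 clones comes from the 2 clone values alone. These kinds of SE are not comparable in size. In that fit 54 probes (0.138%) were higher and 274 (0.700%) lower, and 184 of 16882 genes (1.09%) passed by their brightest probe. By the rule of 1.5-fold on all 4 arrays, 278 genes (1.65%) changed. An unadjusted p below 0.05 was reached by 2588 of the 16882 genes (15.3%), which is the background for the unadjusted counts of the lists. Of the listed genes, 2 passed the limma test, both lower, and these were also the 2 that met the 1.5-fold rule.

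Among the other nuclear receptors, which include the receptors for thyroid hormone, retinoids, fatty acids and vitamin D, 0 of 35 measured genes passed, with 6 (17.1%) at an unadjusted p below 0.05, and their median log2 ratio was −0.0026. RARB, a retinoic acid receptor, was the farthest from 0. It gave −1.22 and −0.54 in sh-G1 and −0.74 and −0.20 in sh-G2, with a mean of −0.68 ± 0.12 (SE; limma, adjusted p = 0.171). With 1 array left out it passed in 3 of 4 fits, with adjusted p-values by limma of 0.0437 without sh-G1 replicate 1, 0.0325 without sh-G1 replicate 2 and 0.0262 without sh-G2 replicate 2, and of 0.103 without sh-G2 replicate 1. With a ctrl clone assumed to vary like the others the adjusted p was 0.914. NR1H3, the oxysterol receptor LXR alpha, had a mean of −0.30 (limma, adjusted p = 0.251), and the highest of the list was NR4A2 at 0.26.

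The coregulators that receptors recruit to chromatin gave 0 of 22 calls, with 1 at an unadjusted p below 0.05. NCOA7, a coactivator, had a mean of 0.38 (limma, adjusted p = 0.439) and NRIP1, a corepressor, of 0.37 (limma, adjusted p = 0.465), each with 1 array against the others in sign. The NRIP1 mean was 0.06 without sh-G2 replicate 1, the array that read 1.25, and 0.67 without sh-G2 replicate 2. Of the chaperones that hold steroid receptors ready for ligand, 0 of 14 passed, with 2 at an unadjusted p below 0.05. HSP90AA1, the inducible HSP90, had a mean of −0.33 (limma, adjusted p = 0.537) and BAG1, a cochaperone, of 0.29 (limma, adjusted p = 0.244). The enzymes that make or convert steroids gave 0 of 27 calls, with 2 at an unadjusted p below 0.05. FDXR and FDX1, which pass electrons to mitochondrial steroid hydroxylases, had means of 0.37 (limma, adjusted p = 0.339) and 0.34 (limma, adjusted p = 0.242).

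Target genes of the receptors were looked at next. Of the 20 oestrogen receptor targets, 1 was lower by the limma test and none was higher. An unadjusted p below 0.05 was reached by 8 of the 20, of which 2 had a mean below 0 and 6 a mean above 0, the latter from 0.23 to 0.50. The one called was BCL2, which protects cells from apoptosis. Its log2 ratios were −1.14 and −0.95 in sh-G1 and −1.23 and −1.30 in sh-G2, with a mean of −1.15 ± 0.07 (SE; limma, adjusted p = 0.0349), a 2.23-fold lower signal. The list had a median of 0.0066, and its highest gene was CA12, a carbonic anhydrase, at 0.50 (limma, adjusted p = 0.117).

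Of the 18 glucocorticoid receptor targets, 1 was lower, none was higher, and 3 had an unadjusted p below 0.05. The one called was GLUL, the glutamine synthetase. Its log2 ratios were −3.01 and −2.57 in sh-G1 and −3.43 and −2.76 in sh-G2, with a mean of −2.94 ± 0.09 (SE; limma, adjusted p = 0.0184), a 7.70-fold lower signal. Both clones were far below ctrl and the arrays of the clones overlapped. The list median was −0.03 and its highest gene was SLC19A2, a thiamine transporter, at 0.23. FKBP5 and TSC22D3, commonly used readouts of glucocorticoid action, had means of 0.22 and −0.03 and were chosen for mention after their values were seen.

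The calls of BCL2 and GLUL leave out the spread of the ctrl clone. With a ctrl clone assumed to vary as much as sh-G1 and sh-G2 do, limma gave an adjusted p of 0.230 for BCL2 and of 0.125 for GLUL. The knockdown readings of both were above background on 3 of 4 arrays, so a filter that asked for both channels on every array left them out. Their size moved with the way the ratio was made, to −3.92 without the offset and −4.41 by the log ratio of the software for GLUL, and to −1.70 and −1.93 for BCL2.

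The targets of the oestrogen-related receptors, mostly genes of the citric acid cycle, fatty acid oxidation and the respiratory chain, gave 0 of 24 calls, with 4 at an unadjusted p below 0.05. Their ratios ran from −0.19 for GABPA to 0.25 for ATP5F1B, a subunit of the ATP synthase (limma, adjusted p = 0.244), with a median of 0.03. TFAM, which maintains mitochondrial DNA, had a mean of 0.23 (limma, adjusted p = 0.316). No gene of this list reached 1.5-fold in its mean.

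**Figure D4:**
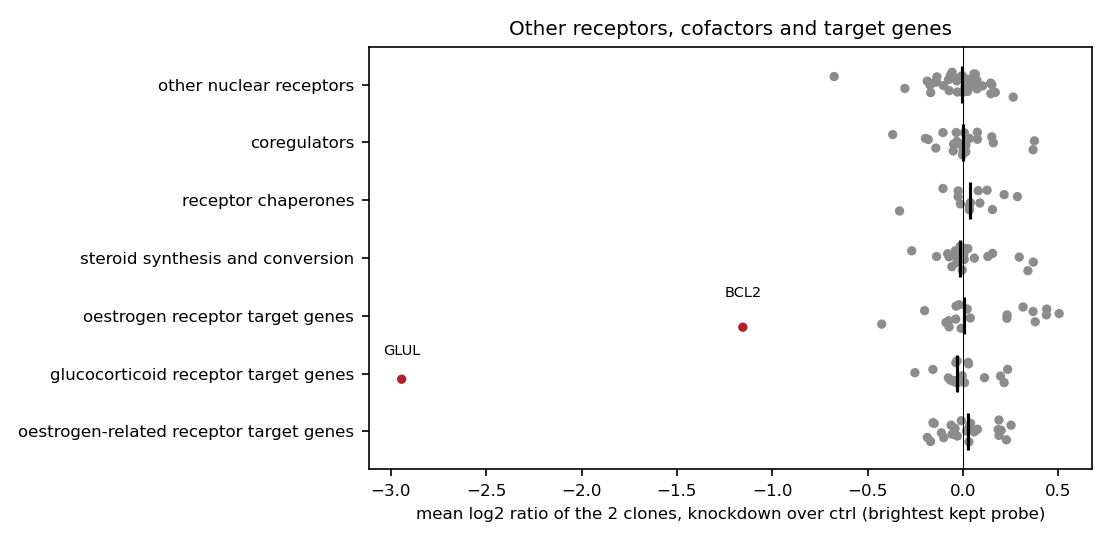
Mean log2 ratio of the clones over ctrl (horizontal axis) of the brightest kept probe of each gene in the 7 lists, 1 point per gene, with a black bar at the median of the list. BCL2 at −1.15 and GLUL at −2.94, in red, passed the limma test and the other genes, in grey, did not.

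Markers of the labelled cell type and of other cells were set beside these results. In both channels of all 4 arrays, the 8 epithelial and ovarian carcinoma markers were above background, a flag that leukocyte genes also carried. In the knockdown channel CDH1 read 119 to 189 scanner units, MUC16 180 to 248.5, WT1 187 to 270 and EPCAM 304 to 560. The leukocyte gene CD14 read 712 to 1074.5 there, and KRT8, KRT18, KRT19 and PAX8 read above it. The summed signal of the 8 markers was 16071 to 24056 scanner units in ctrl and 5997 to 8744 in the knockdown clones. Most of that difference lay in KRT18 and KRT8. The other 6 markers summed to 4814 to 6218 in ctrl and 3485 to 4878 in the knockdown clones. These sums and those below are of signals before normalisation, so the brightness of each dye is part of them. As normalised log2 ratios, the other 6 ran from −0.33 for EPCAM to 0.04 for KRT19. Of the 8 markers, KRT18 fell, with a mean of −2.32 (limma, adjusted p = 0.0365), and so did KRT8, with −1.03 (limma, adjusted p = 0.0316). These are the paired keratins of simple epithelia, and with a ctrl clone assumed to vary like the others their adjusted p by limma was 0.240 and 0.210. The others were not called, with EPCAM at −0.33 (limma, adjusted p = 0.405). The 8 measured markers of leukocytes, endothelium and stroma summed to 41553 to 74117 scanner units in ctrl and 21545 to 35231 in the knockdown clones, and 0 were called. Without DCN the sums were 21034 to 35221 in ctrl and 20567 to 28974 in the knockdown clones. DCN, a matrix proteoglycan of stroma, had a mean of −3.17 (limma, adjusted p = 0.187). The part of these shifts in the ratios of NR2F2 or of the other receptors was not tested.

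For each receptor probe that was 1.5-fold changed on all 4 arrays, the probes with the most similar 4 ratios were sought among the named probes, by Euclidean distance on the log2 scale. This is a description over 4 arrays that share the ctrl RNA. Nearest to NR0B1 were PCDH9, a protocadherin, at a distance of 0.29, CT83, a cancer-testis gene, at 0.34, and MMP3, a matrix metalloproteinase, also at 0.34. Nearest to ESRRG A_23_P74900 was PWWP3B at 0.92, followed by AMIGO2 and ZFHX4 at 1.12. The mean of this ESRRG probe was the 3rd highest of all probes kept, so few probes could lie near it by this measure. The NR2F2 probe A_23_P88589 was nearest to MMP1, an interstitial collagenase, at 0.31, to EPB41L3 at 0.46 and to CPPED1 at 0.48. The NR2F2 probe A_24_P313354 was nearest to FLNC, a filamin, at 0.17, to FNDC5 at 0.18 and to DKK3, a secreted protein of the Dickkopf family, at 0.20.

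Some measured genes near the receptors on the chromosome were also read, as a description chosen after the receptor values were seen. Beside ESRRG, GPATCH2 had a mean of 0.33. Around NR0B1, MAGEB1 was at −0.0085 and TASL at 0.06. On the side of NR2F2 that follows it, ARRDC4, an alpha-arrestin, had a mean of −1.96 and was at least 1.5-fold lower on all 4 arrays, and the next gene, IGF1R, the receptor of insulin-like growth factors, had a mean of −0.95. On the other side, MCTP2 was at 0.09 and RGMA at −0.36. Next to NR3C1, ARHGAP26 and HMHB1 were at 0.02 and −0.02 in the mean.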

How the data were processed

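Expression was measured on 4 Agilent Whole Human Genome arrays of 2 colours. The deposited scanner files hold median spot and background intensity values in Cy3 and Cy5, extracted by the authors with Agilent Feature Extraction (version 8.5.1.1 per the labels, 10.5.1.1 per the file headers), together with a log10 ratio (Cy5 over Cy3) from the same software. A deposited value table holds this log10 ratio for 3 arrays, whereas its column for sh-G1 replicate 2 holds the error of that ratio. The table was used only as an alternative, and 0 of its columns could not be matched to a sample.

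Intensities were background-corrected with normexp and an offset of 50 and normalised by loess within each array in limma 3.58.1 (R 4.3.3), with control spots and outlier-marked spots at weight 0. Spots of a probe were averaged. Of 41000 probes, 40905 had a value on all 4 arrays, and 39151 were kept because, on each array, 1 channel or both stood well above background. Ratios were turned to knockdown over ctrl and averaged over the dye swap, giving 1 value per clone. The mean of the 2 clones was tested against 0 by lmFit and eBayes with a trend, and adjusted by Benjamini-Hochberg at 0.05. Beside it, probes at least 1.5-fold changed in one direction on all 4 arrays were counted without a test, after the selection rule of the study. Because 1 ctrl clone was on every array, the test leaves out the spread of ctrl. Its p-values rest on the moderated spread between the 2 clone values. The labels do not say that the dye-swapped arrays came from separate cultures, so p-values of the clone difference may measure technical spread only. The number of arrays limits the precision.

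Accessions of 25398 probes were matched to gene symbols through the RefSeq gene table. Named were every probe of the 9 genes, GALNT3, the called genes of each list (or, with none, the 2 farthest from 0) and the 3 probes nearest to each changed receptor probe. The receptor genes, lists and tests were chosen with earlier results of these data known, so no list is independent support. One further nuclear receptor of the family is not reported here. The steps were tested on simulated data. Promoter windows came from RefSeq (GRCh38.p14).

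The arrays of sh-G1 and sh-G2 in the same dye orientation correlated at r = 0.613 (replicate 1) and 0.732 (replicate 2) over all probes, and the dye-swapped arrays of a clone at 0.324 (sh-G1) and 0.186 (sh-G2). A dye term was therefore kept in the test of the clone difference.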

Additional observations from a re-analysis of the deposited data

Results flagged for a closer look

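The dim NR3C1 probe A_24_P214754 was higher than ctrl in sh-G1 and near 0 in sh-G2. Its log2 ratios were 0.80 and 0.72 in sh-G1 and −0.08 and −0.01 in sh-G2, where no knockdown reading was well above background. The difference of −0.81 on the log2 scale was not tested, because the probe was not kept.

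DCN, the stromal proteoglycan among the marker genes, differed between the clones by 2.15 on the log2 scale for sh-G2 minus sh-G1 (limma, adjusted p = 0.0300). Its log2 ratios were −4.12 and −4.37 in sh-G1 and −2.07 and −2.11 in sh-G2, so that it was low in all 4 arrays and lower in sh-G1.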

How the results depend on the processing

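The number of receptor probes at least 1.5-fold changed on every array was 4 under every alternative tried, and no named value reversed its sign past a threshold. By the deposited value table, over 3 arrays, the probes at 1.5-fold on every array were 140 higher and 603 lower, and the limma calls 213 higher and 789 lower. The log ratio of the software gave 118 higher by limma. With the clone as a random block over the 4 arrays the calls were 848 higher and 1721 lower. With ctrl given the spread of the knockdown clones they were 0 higher and 0 lower by limma, and 0 among the listed genes. The lowest adjusted p by limma over all probes kept was then 0.120, although 1862 probes lay below 0.05 unadjusted.

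With both channels above background on every array, 0 listed genes were called by limma and 0 were at 1.5-fold, since BCL2 and GLUL left the probes tested, and the clone difference gave 31 calls. Without the dye term it gave 5, with 735 at an unadjusted p below 0.05. Among the receptor probes it gave 1 call by the log ratio of the software and 1 with no filter on dim probes, each time ESRRG A_23_P74900. Leaving out 1 array at a time gave 93 to 136 probes higher and 382 to 451 lower at 1.5-fold, and 56 to 339 higher and 322 to 867 lower by limma, with 339 without sh-G2 replicate 1 and 867 without sh-G1 replicate 2. The listed genes at 1.5-fold were 2 to 2 and the receptor probes 4 to 4. Listed genes called were 3 to 5, with CA12, NCOA3 and SIAH2 added to BCL2 and GLUL without sh-G2 replicate 1. DCN passed with adjusted p-values by limma of 0.0366 without sh-G1 replicate 1, 0.00489 without sh-G1 replicate 2 and 0.000572 without sh-G2 replicate 1. In these fits a lone array stands for its clone.

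The means of ESRRG A_23_P74900 ranged from 3.37 to 4.50, of NR0B1 from −3.75 to −2.78, of GLUL from −4.42 to −2.78 and of BCL2 from −1.94 to −1.11 over the alternatives, with the largest sizes by the deposited value table. The NR3C1 mean ranged from 0.34 to 0.60. Of the other values of named probes, 387 kept their call or moved by less than the spread of the clones, 29 moved by more and 9 newly passed. The knockdown side of NR0B1 and the ctrl side of ESRRG lay near the background, which limits the size of their ratios. No paired analysis was possible because the replicate numbers mark the dye orientation of an array, both clones were set against the same ctrl RNA, and the dye term already stands for that number in the test of the clone difference.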
